A study of Mus musculus with 21 samples.

Results

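The 6 genes described here encode receptors and enzymes of the retinoic acid pathway. *Rara*, *Rarg*, *Rxra* and *Rxrb* encode nuclear receptors, *Aldh1a1* encodes an enzyme that makes retinoic acid and *Dhrs3* encodes an enzyme that turns its precursor back. They were taken by name from the 47643 genes of a count table and followed over all 21 libraries. *Rara* and *Aldh1a1* had been selected on their levels across these same populations, so their values are given as a description with no test, and the other 4 genes were tested. All 6 passed the filter on low counts, which *Aldh1a1* could pass only through its CMP libraries.

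The libraries came from 7 populations of blood progenitors that were sorted by flow cytometry from bone marrow of C57/B6 mice, with 3 libraries each. The mice were young adults by the study's methods, and no treatment or engineered allele is given for any group. Common myeloid progenitors (CMPs) and the granulocyte-monocyte progenitors (GMPs) that arise from them were both negative for lineage markers and Sca-1 and positive for Kit and CD34, and GMPs differed from CMPs in being positive for CD16/32. Both were sorted whole (bulk CMPs, bulk GMPs) and by the surface level of CD62L, an adhesion receptor of white blood cells: CD62L-neg and CD62L-high CMPs, and CD62L-neg, CD62L-int and CD62L-high GMPs. In the labels, CD62L-low CMP stands for the CD62L-neg CMPs, and CD62L-low GMP for the CD62L-int GMPs. The sources do not say whether libraries of a population came from separate mice, so p-values measure the spread between these libraries, which may be technical.

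Libraries held 6145834 to 15263573 counts, and those of bulk and CD62L-neg CMPs were the shallowest. In most libraries 22.4% to 31.7% of the counts fell on 3 gene models of ribosomal RNA (*Gm23935*, *Gm26917*, *Gm42418*). This share was 61% in bulk CMP replicate 2 and 41.1% in CD62L-high GMP replicate 1, so the main results that rest on these 2 libraries are also given without them. *Fcgr3*, which encodes CD16, had means of 7.88 to 15 CPM in the 3 CMP populations and 139 to 169 CPM in the 4 GMP populations.

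Retinoic acid is made from vitamin A in 2 oxidation steps, from retinol to retinal and from retinal to retinoic acid. Retinal dehydrogenases such as ALDH1A1 carry out the second step, and DHRS3 reduces retinal to retinol, which lowers the supply of substrate. Retinoic acid binds a retinoic acid receptor (RAR) that sits on DNA together with a retinoid X receptor (RXR). Without ligand the pair holds corepressors, and with ligand it recruits coactivators. RXRs also pair with other nuclear receptors, among them the vitamin D receptor. In the blood system RARα is best known from acute promyelocytic leukaemia, in which it is fused to PML and which retinoic acid treats by driving the cells to mature into granulocytes.

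Levels are given in CPM, read counts relative to library size, scaled with the TMM factors of edgeR. A fold change is on the log2 scale with its standard error (SE). Of 14801 genes tested, those with a fold change over 2 and an adjusted p under 0.05 (edgeR's quasi-likelihood test, Benjamini-Hochberg) were called. All 7 populations were fitted together, and several comparisons share libraries.

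*Rara*, the gene of RARα, varied the most of the 4 receptors: its highest population mean was 10.3 times its lowest. In CMPs its level was 14.6, 11.2 and 10.9 CPM in the CD62L-neg libraries and 24.6, 19.2 and 23.2 CPM in the CD62L-high libraries. In GMPs it was 3.36, 2.59 and 2.56 CPM in CD62L-neg, 7.64, 9.4 and 7.15 CPM in CD62L-int and 41.9, 20.6 and 24 CPM in CD62L-high libraries. Levels thus stepped up with CD62L in both progenitors and the sorted fractions did not overlap within either. Bulk CMPs had 22.2, 43 and 22.8 CPM and bulk GMPs 14.1, 17.9 and 14.2 CPM. The highest bulk CMP value belongs to the library with 61% ribosomal counts. In bulk samples a smaller share of cells that express a gene and less RNA per cell cannot be told apart.

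From CD62L-neg to CD62L-high CMPs the log2 fold change of *Rara* was 0.86 (SE 0.27), and from CD62L-neg to CD62L-high GMPs it was 3.34 (SE 0.30). The GMP value was 2.97 without CD62L-high GMP replicate 1. From CD62L-high to CD62L-int GMPs the value was -1.84 (SE 0.28), or -1.47 without that library. CD62L-neg GMPs against CD62L-neg CMPs gave -2.11 (SE 0.30). CD62L-high GMPs and CD62L-high CMPs overlapped, at 0.37 (SE 0.26), or 0.00 without CD62L-high GMP replicate 1. Bulk GMPs against bulk CMPs gave -0.91 (SE 0.27), and -0.55 without bulk CMP replicate 2. Ordered by mean, *Rara* ran from bulk CMPs (29.4 ± 11.8 CPM, SD, n = 3) over CD62L-high GMPs, CD62L-high CMPs, bulk GMPs, CD62L-neg CMPs and CD62L-int GMPs to CD62L-neg GMPs (2.84 ± 0.453 CPM, SD, n = 3). Libraries of neighbours in this order did not overlap between CD62L-high CMPs and bulk GMPs, between CD62L-neg CMPs and CD62L-int GMPs, and between CD62L-int and CD62L-neg GMPs.

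**Figure D1:**
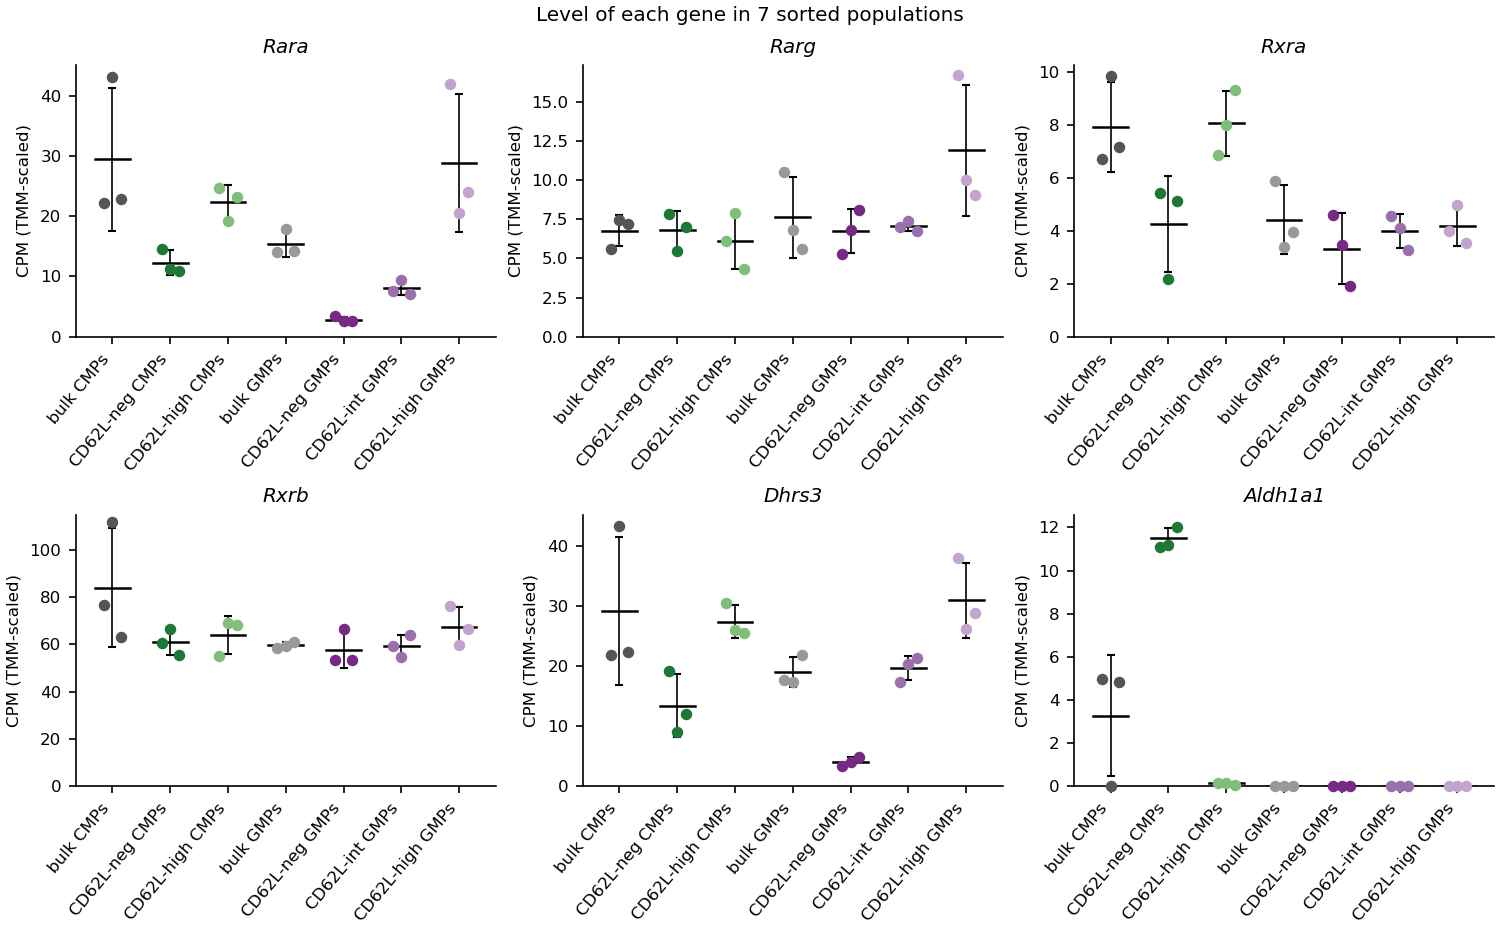
Level of the 6 genes in CPM (vertical axes, linear from 0) in the 7 populations (horizontal axes). Dots are libraries, horizontal lines the mean of 3 libraries and bars the SD; *Rara* and *Dhrs3* are lowest in CD62L-neg GMPs (means of 2.84 and 4.06 CPM), and *Aldh1a1* is at 0 in all GMP libraries.

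*Rarg*, the gene of RARγ, varied less than *Rara*. Its population means ran from 6.09 CPM in CD62L-high CMPs to 11.9 CPM in CD62L-high GMPs, a ratio of 1.96. The 3 CD62L-high GMP libraries had 16.7, 10 and 9.03 CPM, of which the first is the library with 41.1% ribosomal counts. CD62L-neg GMPs had 5.27, 6.83 and 8.09 CPM and CD62L-high CMPs 6.08, 7.87 and 4.32 CPM, so neither overlapped the CD62L-high GMPs. Between CD62L-high GMPs and CD62L-high CMPs the log2 fold change was 0.97 (SE 0.32, adjusted p = 0.0468), past the p threshold (as were 12.5% of all genes) but short of a 2-fold change, and without CD62L-high GMP replicate 1 it was 0.64 (adjusted p = 0.298). It passed both limits without CD62L-high CMP replicate 2 (1.17, adjusted p = 0.0477) or CD62L-high GMP replicate 3 (1.10, adjusted p = 0.0425). Against CD62L-neg GMPs it was 0.82 (SE 0.32, adjusted p = 0.0803), or 0.50 without CD62L-high GMP replicate 1 (adjusted p = 0.4), and was not called. Every pair of neighbours in the order of *Rarg* means overlapped.

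The balance of the 2 RAR transcripts therefore moved with *Rara*. Counted per kilobase of exon, so that levels of different genes can be compared, *Rara* made up 79.4%, 84.9% and 75.6% of the *Rara* and *Rarg* signal in bulk CMPs and 79.8%, 70.4% and 83.9% in CD62L-high CMPs. It made up 64.5%, 66.6% and 60.3% in CD62L-neg CMPs. In GMPs the share was 71%, 66.8% and 72.1% in CD62L-high, 51.7%, 55.4% and 50.8% in CD62L-int and 38.4%, 27% and 23.6% in CD62L-neg libraries. The CD62L-neg GMPs were thus the population in which *Rarg* exceeded *Rara* per kilobase, in all 3 libraries, at 1.58 against 0.65 CPM per kilobase. Bulk GMPs, which hold all 3 fractions, had shares of 56.6%, 72% and 71.3%. Both genes have transcripts of different lengths, and all exons of a gene were counted in its length. The third RAR gene, *Rarb*, had 13 counts in total, in 4 of the 21 libraries.

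**Figure D2:**
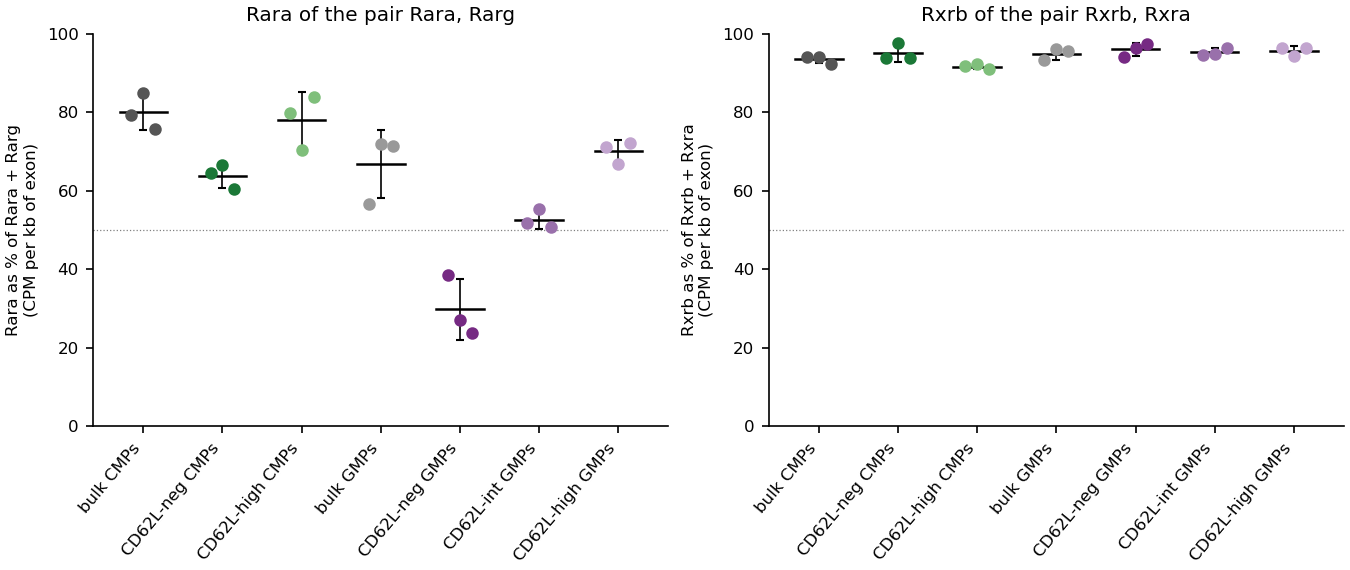
Share of *Rara* in the sum of *Rara* and *Rarg* (left) and of *Rxrb* in the sum of *Rxrb* and *Rxra* (right), in % of CPM per kilobase of exon, by population. Dots are libraries, lines means of 3 and bars SD, and the dotted line marks 50%; the 3 CD62L-neg GMP libraries lie between 23.6% and 38.4% in the left panel, and all 21 libraries lie between 91% and 97.7% in the right panel.

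Of the RXR genes, *Rxrb* carried nearly all the signal. Its share of the *Rxrb* and *Rxra* signal per kilobase was 91% to 97.7% over the 21 libraries, and the third gene, *Rxrg*, had 11 counts in total. *Rxrb* was also the steadiest of the 6 genes, with population means between 57.7 CPM in CD62L-neg GMPs and 84.1 CPM in bulk CMPs. The bulk CMP libraries had 76.9, 112 and 63.3 CPM, and the highest value belongs to replicate 2. Bulk GMPs had 58.6, 59.3 and 61.1 CPM, and their log2 fold change to bulk CMPs was -0.48 (SE 0.17, adjusted p = 0.0501), or -0.23 without that library (adjusted p = 0.347). In the other 5 comparisons the change of *Rxrb* lay between -0.18 and 0.23 and was not called. For CD62L-high against CD62L-neg CMPs the 95% interval of its log2 change was -0.28 to 0.43, and for CD62L-high against CD62L-neg GMPs it was -0.13 to 0.58, so neither interval reaches a 2-fold change.

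*Rxra* was lower and less steady. CD62L-high CMPs had 6.87, 8 and 9.33 CPM, CD62L-neg CMPs 5.44, 2.17 and 5.13 CPM and bulk CMPs 6.7, 9.86 and 7.18 CPM. The 4 GMP populations had means of 3.32 to 4.42 CPM, and their single libraries ranged from 1.92 to 5.9 CPM, all below those of bulk and CD62L-high CMPs. From CD62L-neg to CD62L-high CMPs the log2 fold change was 0.92 (SE 0.39, adjusted p = 0.114), with libraries that did not overlap. CD62L-high GMPs against CD62L-high CMPs gave -0.95 (SE 0.38, adjusted p = 0.116), and bulk GMPs against bulk CMPs gave -0.82 (SE 0.39, adjusted p = 0.143), or -0.65 without bulk CMP replicate 2 (adjusted p = 0.344). None of the 3 was called, and their intervals reach from near no change to beyond a 2-fold change: 0.12 to 1.73, -1.74 to -0.17 and -1.63 to -0.02. Among GMP fractions the change was 0.33 (SE 0.39) from CD62L-neg to CD62L-high and -0.07 (SE 0.38) from CD62L-high to CD62L-int.

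*Dhrs3*, the retinal reductase and itself a textbook target of retinoic acid, was the tested member that changed. In GMPs its level was 3.28, 4.08 and 4.8 CPM in the CD62L-neg, 17.4, 20.3 and 21.4 CPM in the CD62L-int and 38.1, 26.2 and 28.8 CPM in the CD62L-high libraries. The 3 fractions did not overlap. CD62L-high GMPs exceeded CD62L-neg GMPs by a log2 fold change of 2.93 (SE 0.29, adjusted p = 6.68e-08), and by 2.76 without CD62L-high GMP replicate 1 (adjusted p = 3.42e-07). *Dhrs3* was the 1 of the 4 tested members called in this comparison, in which 10.5% of all genes tested were called. From CD62L-high to CD62L-int GMPs the change was -0.65 (SE 0.26, adjusted p = 0.254), or -0.48 without CD62L-high GMP replicate 1 (adjusted p = 0.651). There, edgeR called 0 of the 4 members, and 2 had an unadjusted p under 0.05 with edgeR and with DESeq2, which also called 0. The comparison called 1.22% of all genes, a share under both limits, on fold and adjusted p. The share of all genes with an unadjusted p under 0.05 is not given here.

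In CMPs *Dhrs3* had 19.2, 9.06 and 12 CPM in the CD62L-neg and 30.5, 26.1 and 25.5 CPM in the CD62L-high libraries, which did not overlap. The log2 fold change was 1.02 (SE 0.27, adjusted p = 0.0088), just past the 2-fold limit, and *Dhrs3* was the 1 of the 4 members called, with 10.5% of all genes called. The call is marginal. It was lost because the fold fell to 2 or below with DESeq2 (0.98, adjusted p = 0.00565), with RLE size factors, with only the 2 populations fitted and when CD62L-high CMP replicate 1 or CD62L-neg CMP replicate 3 was left out (0.93 each). Without CD62L-neg CMP replicate 2 the adjusted p was 0.0691, at a change of 0.80. The increase with CD62L was larger in GMPs than in CMPs: the difference of the 2 log2 fold changes was 1.91 (SE 0.39, adjusted p = 0.00233), and 1.73 without CD62L-high GMP replicate 1 (adjusted p = 0.00704). This interaction called 5.93% of all genes. For *Rara*, the same difference was 2.47 (SE 0.40), given as a description. The study gated CMPs and GMPs on CD62L by different rules, so a difference between progenitors and one between gates cannot be told apart.

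Between progenitors, *Dhrs3* was lower in CD62L-neg GMPs than in CD62L-neg CMPs, with a log2 fold change of -1.73 (SE 0.29, adjusted p = 9.14e-05), and was the 1 of 4 members called where 12.6% of all genes were called. Among the CD62L-high fractions the change was 0.18 (SE 0.26, adjusted p = 0.74), with a 95% interval of -0.35 to 0.71. Here edgeR and DESeq2 each called 0 of 4 members, and *Rarg* and *Rxra* had an unadjusted p under 0.05 with edgeR; 7.64% of all genes were called. Bulk CMPs had 21.8, 43.3 and 22.3 CPM and bulk GMPs 17.6, 17.4 and 21.9 CPM, which overlap in part, at a change of -0.59 (SE 0.27, adjusted p = 0.121), and of -0.22 without bulk CMP replicate 2 (adjusted p = 0.632). In that comparison edgeR and DESeq2 called 0 of the 4 members, *Rxra*, *Rxrb* and *Dhrs3* had an unadjusted p under 0.05 with edgeR, and 11.5% of all genes were called. The shares of all genes called are under both limits, and no share for an unadjusted p under 0.05 is given.

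**Figure D3:**
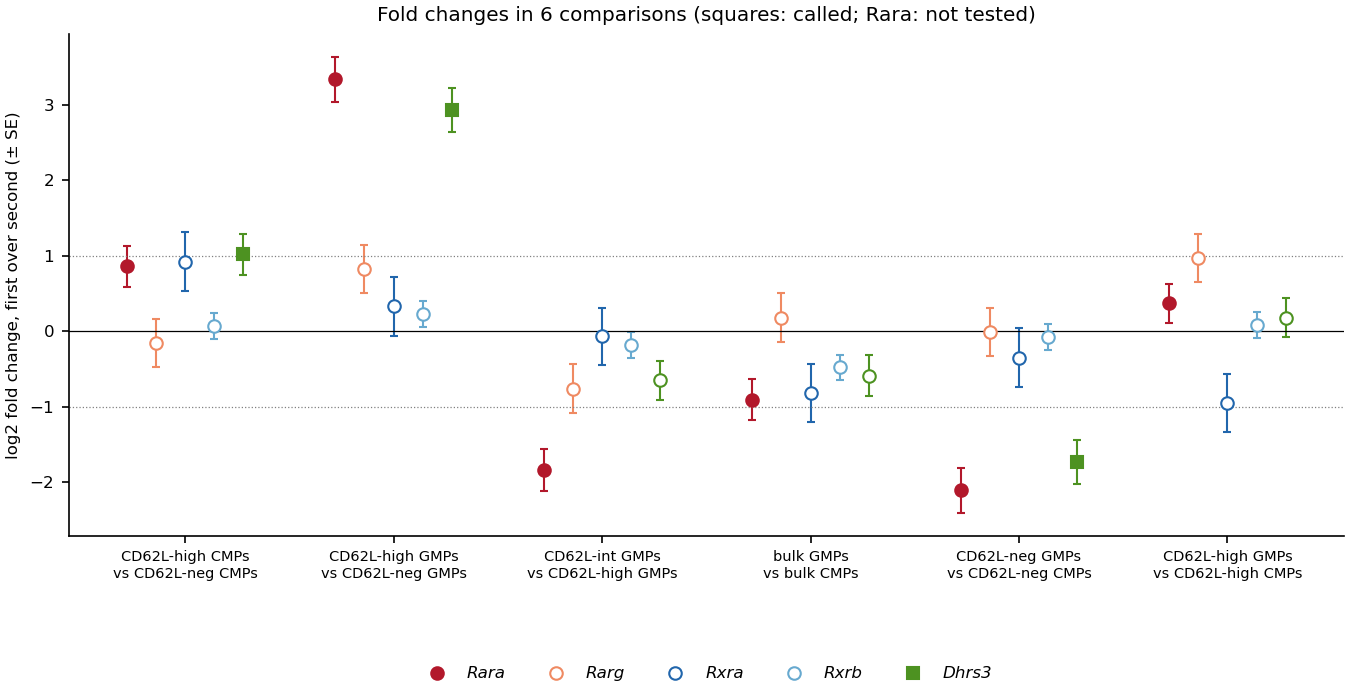
Log2 fold changes (vertical axis) of *Rara*, *Rarg*, *Rxra*, *Rxrb* and *Dhrs3* in 6 comparisons (horizontal axis, first population over second). Bars are standard errors, squares are called genes, open circles tested genes that were not called and filled circles *Rara*, which was not tested; dotted lines mark a 2-fold change, and *Rara* and *Dhrs3* lie at 3.34 and 2.93 for CD62L-high against CD62L-neg GMPs.

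Between CD62L fractions of the same progenitor, markers of other cell types also differed. The summed level of 9 monocyte and dendritic genes (among them *Csf1r*, *Irf8* and *Klf4*) was 133 to 154 CPM in CD62L-neg, 1697 to 1902 in CD62L-int and 3076 to 3218 in CD62L-high GMPs, and all 9 were called higher in CD62L-high than in CD62L-neg GMPs. In CMPs it was 43.9 to 81.9 CPM in CD62L-neg and 2050 to 2359 CPM in CD62L-high libraries, again with 9 of 9 called. Between progenitors this list did not follow *Rara* and *Dhrs3*. In CD62L-neg GMPs, where both genes were lower than in CD62L-neg CMPs, 5 of the 9 were called higher and 0 lower. The list summed to 680 to 936 CPM in bulk CMPs and 1909 to 1946 CPM in bulk GMPs, with 4 called higher and 2 lower in the GMPs. The 9 eosinophil genes, led by *Prg2* and *Epx*, summed to 1266 to 1940 CPM in CD62L-neg GMPs and to 3.51 to 10.6 CPM in CD62L-high GMPs, in which *Ear2*, *Il5ra* and *Ccr3* were at 0. The 9 basophil and mast cell genes summed to 1140 to 1810 CPM in CD62L-neg and 41.9 to 58.8 CPM in CD62L-high GMPs. Neutrophil primary granule genes overlapped between these GMPs, at 24358 to 26321 and 19679 to 25704 CPM. In CMPs they summed to 888 to 1793 CPM in CD62L-neg and 7269 to 8462 CPM in CD62L-high libraries. The part of these cell types in the levels of *Rara* and *Dhrs3* was not tested. T and NK cell genes summed to at most 1.04 CPM in any library.

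*Aldh1a1*, the retinal dehydrogenase, ran the other way in CMPs and was seen in no GMP library. CD62L-neg CMPs had 92, 88 and 89 counts, or 11.1, 11.2 and 12 CPM. CD62L-high CMPs had 2, 2 and 1 counts, or 0.158, 0.127 and 0.0618 CPM. Over the pooled libraries the level in CD62L-neg CMPs was 102 times that in CD62L-high CMPs, with a 95% interval of 43.2 to 317 that covers counting error only. All 12 GMP libraries had 0 counts, which allows up to 0.072 to 0.0783 CPM in a GMP population at 3 counts over its pooled libraries. The level in CD62L-neg CMPs was therefore at least 146-fold higher than in CD62L-neg GMPs. Since the gene was picked for this pattern, no test is given.

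Bulk CMPs, which hold both CMP fractions, had 37, 0 and 37 *Aldh1a1* counts, or 4.95, 0 and 4.83 CPM. The library at 0 is again replicate 2, which had the fewest counts of all libraries. A count of 0 allows up to 0.896 CPM there, and the level of the other 2 libraries would have given 16.4 counts. Genes close to *Aldh1a1* in pattern were present in that library, with *Slc14a1* at 46.7, 58.6 and 53.6 CPM and *Med12l* at 35, 23.3 and 35.6 CPM in the 3 bulk CMP libraries. The value of 0 was therefore not shared by them, and its cause was not tested.

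Markers of other blood lines were high in the same populations. The 10 megakaryocyte and platelet markers summed to 751 to 896 CPM in CD62L-neg CMPs, 213 to 236 CPM in bulk CMPs and 34 to 37.1 CPM in CD62L-high CMPs, and 9 of the 10 were called lower in CD62L-high than in CD62L-neg CMPs. The 9 erythroid markers summed to 434 to 462, 128 to 146 and 22.8 to 42.9 CPM in the same populations, with 7 called, and the 8 stem and multipotent progenitor markers to 354 to 377, 178 to 219 and 78.7 to 117 CPM, with 4 called. The 9 basophil and mast cell markers summed to 766 to 787, 355 to 483 and 58 to 87.4 CPM, with 7 called lower and 1 higher. Of 7 stroma and endothelium markers, 2 were called lower and 1 higher. The part of each cell type in the level of *Aldh1a1* was not tested. In CD62L-neg GMPs the megakaryocyte list still summed to 118 to 158 CPM, while *Aldh1a1* was at 0.

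*Aldh1a1* lies at chr19:20492715-20643465 on the plus strand of GRCm38 (mm10), and its near copy *Aldh1a7* lies beside it at chr19:20692953-20727562 on the minus strand. Their coding sequences, both 1506 bases long, are 91.6% identical, so reads could in part be assigned to either. The stretch in which they differ most, coding bases 319 to 378, shows how far apart the 2 copies are, with the 16 differences in capitals.
Aldh1a1: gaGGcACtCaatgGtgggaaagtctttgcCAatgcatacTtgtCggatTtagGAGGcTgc
Aldh1a7: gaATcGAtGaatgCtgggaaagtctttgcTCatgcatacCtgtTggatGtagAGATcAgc
The longest identical run between the coding sequences is 100 bases, and 3.06% of the 50-base stretches of *Aldh1a1* exons also occur in *Aldh1a7*. *Aldh1a7* had 6, 1 and 4 counts in CD62L-neg CMPs against 92, 88 and 89 for *Aldh1a1*. In the other populations the counts of *Aldh1a7* were 0 except for 3 in 1 bulk GMP library and 1 and 4 in 2 CD62L-neg GMP libraries. *Rara* and *Rarg* share no 50-base stretch, nor do *Rxra* and *Rxrb*, and no exon of the 6 genes overlaps an exon of another gene.

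The other loci lie at chr11:98927818-98974942 (*Rara*, plus strand), chr15:102234938-102257517 (*Rarg*, minus strand), chr2:27676440-27762957 (*Rxra*, plus strand), chr17:34031812-34038399 (*Rxrb*, plus strand) and chr4:144892827-144928209 (*Dhrs3*, plus strand). All are on GRCm38, the build of the counts.

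Of the members that varied over the populations, *Rara* and *Dhrs3* had similar patterns. Likeness was measured as the root mean square difference of the 2 log2 profiles over the 7 population means, each centred on its own mean, among 9287 expressed genes. For *Rara* the 3 nearest genes were *Zfp467* (0.33), *Fam129b* (0.35) and *Dhrs3* (0.40), and without bulk CMP replicate 2 *Dhrs3* ranked 4. Conversely, *Rara* ranked 16 for *Dhrs3*, whose nearest genes were *Hivep3* (0.19), *Abcb1b* (0.22) and *Myadm* (0.27). Among the steadier members the distance was 0.30 between *Rarg* and *Rxrb*, 0.37 between *Rxra* and *Rxrb* and 0.62 between *Rarg* and *Rxra*. The profiles of *Rara* and *Dhrs3* diverge in CD62L-int GMPs, where *Dhrs3* (19.7 CPM) was near its bulk GMP level (19 CPM) and *Rara* (8.06 CPM) was below its own (15.4 CPM). For *Aldh1a1* the nearest genes were *Slc14a1* (0.51), *Med12l* (0.66) and *Abcb4* (0.68), and *Robo3* came first (0.58) without bulk CMP replicate 2. The nearest to *Rarg* were *Tyk2* (0.06), *Hist1h2ad* (0.09) and *Cuta* (0.09), to *Rxra* *Ankrd50* (0.10), *Atp2b4* (0.14) and *Fchsd2* (0.14), and to *Rxrb* *Mllt1* (0.03), *Dot1l* (0.04) and *Nbeal2* (0.05). Genes as flat as *Rxrb*, whose profile spans 0.51 on the log2 scale, are near to many others, so a small distance says little there.

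**Figure D4:**
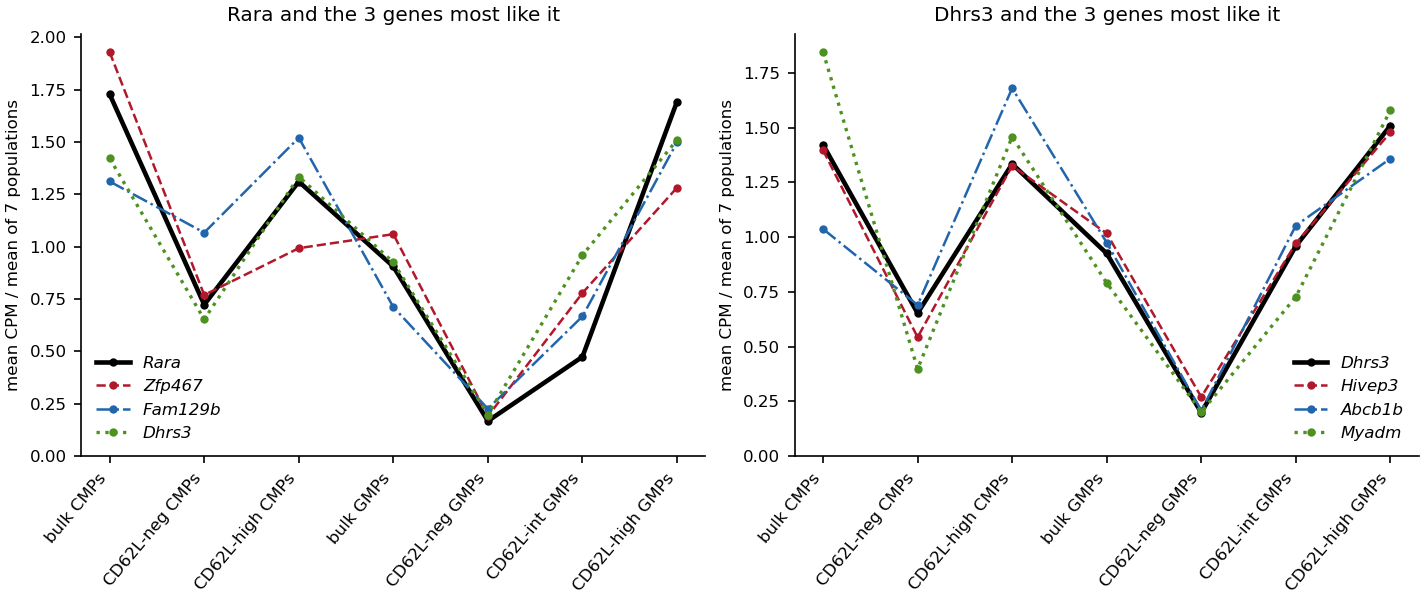
Population mean CPM divided by the mean over 7 populations (vertical axes, linear from 0) for *Rara* (left) and *Dhrs3* (right), each with the 3 genes nearest to it in pattern. Lines join the populations for legibility only; all curves are lowest in CD62L-neg GMPs, where *Rara* has a mean of 2.84 CPM and *Dhrs3* of 4.06 CPM.

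Beyond the 6 genes, 77 other genes of the pathway were listed and 42 passed the filter on low counts. Several entry and exit points of the pathway were close to absent at this depth. *Lrat*, which stores retinol as esters, the carrier *Rbp4* and the binding protein *Crabp1* had no count in any of the 21 libraries. The dehydrogenases *Aldh1a2* and *Aldh1a3* had 4 and 7 counts in total, the retinol importer *Stra6* had 1, and *Crabp2* had 7. *Cyp26a1*, *Cyp26b1* and *Cyp26c1*, the enzymes that degrade retinoic acid, had 1, 5 and 37 counts. Of the genes for retinoic acid binding, *Fabp5* was well expressed, with population means of 33.9 CPM in CD62L-neg GMPs to 71.2 CPM in CD62L-high CMPs.

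Between CD62L-high and CD62L-neg CMPs, 3 of the 42 genes were called higher and 2 lower (11.9%, against 10.5% of all genes), with a median log2 change of -0.02 against 0.01 over all genes. The reductase gene *Dhrs7* rose by 1.31 (SE 0.35, adjusted p = 0.00957). So did 2 genes for partners of RXR, *Vdr*, the vitamin D receptor, by 1.36 (SE 0.39) and *Ppard* by 1.07 (SE 0.29). *Nrip1*, a corepressor that retinoic acid induces, fell from 215 ± 7.73 to 94.8 ± 4.15 CPM (SD, n = 3), and *Tgm2*, the transglutaminase known as a retinoic acid target, fell from 19.5 ± 2.15 to 1.23 ± 1.08 CPM. The calls of the 3 genes that rose are fragile: all 3 were lost without CD62L-neg CMP replicate 3, which leaves 2 calls, and the number of calls was 3 when CD62L-high CMP replicate 1 or CD62L-neg CMP replicate 2 was left out.

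Between CD62L-high and CD62L-neg GMPs, 3 of the 42 were called higher and 4 lower (16.7%, against 10.5% of all genes), with a median of 0.14 against -0.04. All 3 that rose encode partners of RXR, a list of which 9 genes were tested. *Vdr* went from 0.367 ± 0.281 to 17.7 ± 5.38 CPM, a log2 fold change of 5.56 (SE 0.50, adjusted p = 1.65e-08). *Nr4a1*, an orphan receptor that early stimuli induce, rose by 2.11 (SE 0.34). *Pparg* had a mean of 1.83 CPM in CD62L-high GMPs and a level 71.6 times that in CD62L-neg GMPs, with a counting interval of 12.5 to 2863. The 4 that fell are all listed as retinoic acid targets. *Cebpe*, a factor of late granulocyte differentiation, went from 54.6 ± 5.52 to 3.19 ± 3.25 CPM, a change of -4.07 (SE 0.49, adjusted p = 1.18e-06). *Bhlhe40* and *Nrip1* fell by 1.58 (SE 0.35) and 1.12 (SE 0.14). *Tgm2*, which is under 1 CPM in both and is named here after its values were seen, was at 0 in CD62L-high GMPs and lost its call when any 1 of 5 libraries was left out. From CD62L-high to CD62L-int GMPs, 2 were called, both higher (4.76%, against 1.22% of all genes): *Cebpe* by 2.35 (SE 0.46) and *Bhlhe40*, from 2.13 to 5.98 CPM. The call of *Bhlhe40* was lost when any 1 of 4 libraries was left out. With only the 2 populations fitted, neither was called.

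The GMP and CMP comparisons called more of the listed genes in the lower direction. The shares of all genes beside them count both directions, and the split of all called genes by direction is not given here. CD62L-neg GMPs against CD62L-neg CMPs gave 4 higher and 7 lower of 42 (26.2%, against 12.6% of all genes), with a median of -0.21 against -0.01. The 4 that rose were *Cebpe* (5.91, SE 0.58), the retinol dehydrogenase *Rdh12* (2.55, SE 0.77), *Dhrs7* (1.25, SE 0.35) and the retinol saturase *Retsat* (1.18, SE 0.20), of which *Rdh12* and *Dhrs7* each lost their call when any 1 of 3 libraries was left out. Among those that fell were *Tgm2* (-5.43, SE 0.87), *Nr4a1* (-4.62, SE 0.36), *Vdr* (-3.85, SE 0.51) and the coactivator *Ncoa3* (-1.38, SE 0.15). *Cd38*, at 1.14 ± 0.432 CPM in CD62L-neg CMPs and 0 in CD62L-neg GMPs, was at least 14.7-fold lower, a call that was lost when any 1 of 4 libraries was left out. In bulk GMPs against bulk CMPs 2 were higher and 8 lower (23.8%, against 11.5%), led by *Cebpe* (2.99, SE 0.53), *Tgm2* (-3.80, SE 0.82) and *Nr4a1* (-3.60, SE 0.33). *Nr4a1* stood at 351, 795 and 369 CPM in the 3 bulk CMP libraries, with the highest value in replicate 2, and the call of *Dhrs7*, one of those that rose, was lost without that library. In CD62L-high GMPs against CD62L-high CMPs 6 were called, all lower (14.3%, against 7.64%). Among them were *Nrip1*, *Nr4a1*, *Nr4a2*, *Tgm2* and *Bhlhe40*.

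**Figure D5:**
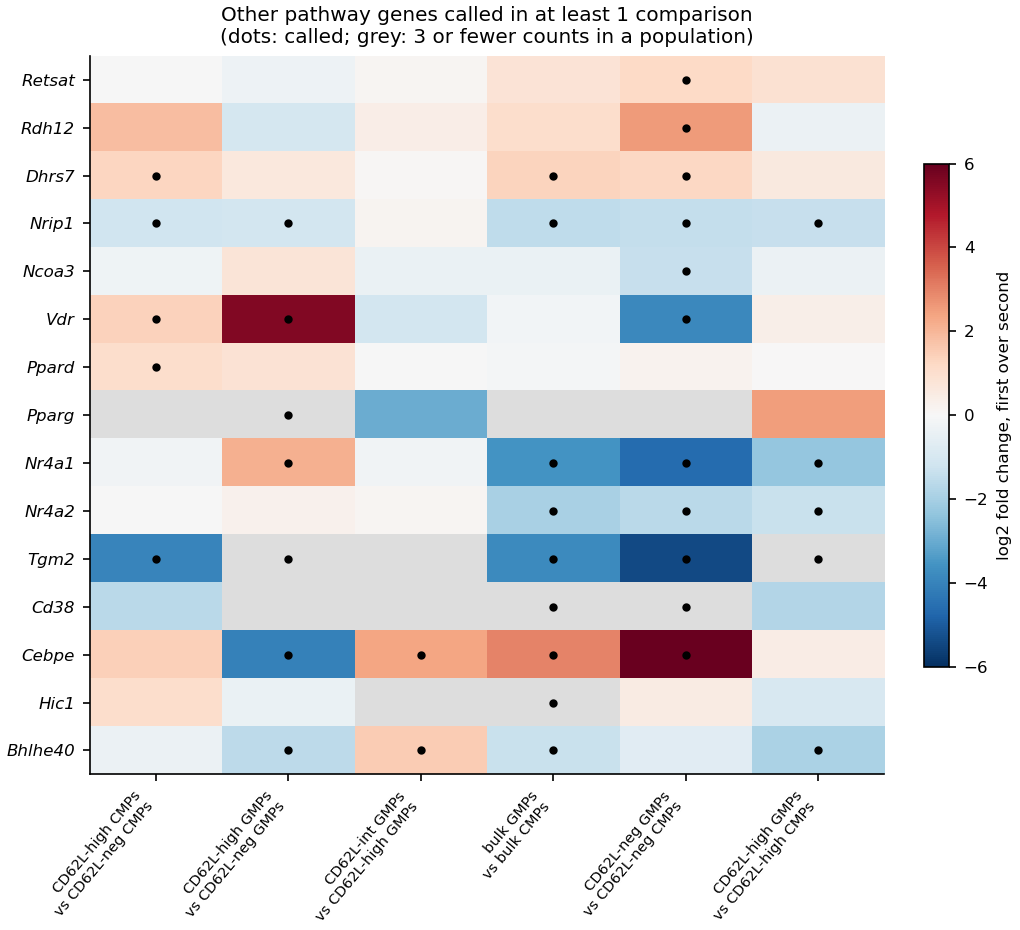
Log2 fold changes (colour, first population over second) of 15 other pathway genes, each called in at least 1 of 6 comparisons, with genes in rows and comparisons in columns. Dots mark calls and grey cells mark pairs in which a population had 3 or fewer counts; *Vdr* is at 5.56 and *Cebpe* at -4.07 for CD62L-high against CD62L-neg GMPs.

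All 15 listed corepressors and coactivators were tested. *Nrip1* was called in 5 of the 6 comparisons and *Ncoa3* in 1, so the highest count was 2 of 15, between the CD62L-neg populations, where 12.6% of all genes were called. There and in CD62L-high against CD62L-neg GMPs, 4 of the 15 passed the adjusted p alone. The 12.6% is for fold and adjusted p together, and the share of all genes past the adjusted p alone is not given here. *Ncor1*, which encodes a corepressor that unliganded RAR binds, had population means of 354 to 448 CPM.

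Of the 18 textbook targets of retinoic acid listed beside *Dhrs3*, 7 passed the filter. In CD62L-high against CD62L-neg GMPs 4 of these were called lower (10.5% of all genes were called there, in either direction), among them *Tgm2* with its unsteady call, and the other 3 were not called, with a median log2 change of -1.58 against -0.04 over all genes, while *Rara* and *Dhrs3* were higher there. *Cebpe* also belongs to the C/EBP family and its level in each GMP fraction ran against that of *Rara*: 54.6, 16.6 and 3.19 CPM in CD62L-neg, CD62L-int and CD62L-high GMPs. In CMPs its mean was higher in the CD62L-high fraction, as was that of *Rara*, at 0.907 CPM in CD62L-neg and 2.39 CPM in CD62L-high CMPs. The summed eosinophil markers fell in the same order over the GMP fractions, and their part in the level of *Cebpe* was not tested. The best known direct targets, *Rarb* and *Cyp26a1*, had 13 and 1 counts over all 21 libraries.

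To show what such a target looks like, promoters were searched for pairs of receptor half-sites. RAR and RXR bind direct repeats of a 6-base half-site, and a spacer of 5 bases (DR5) is the classical retinoic acid response element. The half-sites searched on both strands were AGGTCA or GGGTCA, as well as AGTTCA or GGTTCA, in windows from 250 bases before to 50 bases after each start (RefSeq, GRCm38.p6). The 2 elements found in *Rarb* and *Cyp26a1* are printed with 6 bases on either side and the half-sites in capitals. They lie at chr14:16575507-16575535 and chr19:37697770-37697798, both read on the minus strand, and end 37 and 16 bases before the start.
Rarb: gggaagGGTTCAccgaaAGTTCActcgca
Cyp26a1: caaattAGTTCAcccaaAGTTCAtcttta
Such a DR5 is found in 0.0974% of 32851 windows, and repeats with spacers of 1 and 2 bases are found in 0.222% and 0.268%. None of the 15 windows of the 6 genes holds any of the 3, which says only that these letters are not in these windows.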

How the data were processed

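RNA-seq read counts were deposited by the authors as 1 table of whole-number counts per gene for 21 libraries, with 3 libraries in each of 7 sorted populations. The submitters' processing notes name bcl2fastq, Trim Galore, HISAT2, HTSeq and the build mm10, and the tool versions, the strand setting and the annotation release are not given in the sources used here. The labels name a stranded kit and the study's methods a different one, so overlap with antisense genes was not resolved. The study left out 1 bulk CMP sample without saying which, and all 3 were used here. Genes were fitted together over the 21 libraries with edgeR 4.0.16 (R 4.3.3; TMM factors, filterByExpr on the 7 groups, quasi-likelihood F test, Benjamini-Hochberg adjustment over 14801 genes). The SE is the log2 fold change divided by the square root of F. Where a population had 3 or fewer counts a bound or a ratio of pooled counts with its 95% interval is given instead.

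The 6 genes, the lists of other pathway genes and markers, and the tests were chosen with earlier results of these data known. List genes were named where called with a mean of at least 1 CPM in the higher population, at most 4 per list, direction and comparison. Genes with the most similar pattern were taken among those with a mean of at least 5 CPM, from log2 levels with a prior count of 2. Alternatives were DESeq2 1.42.0, RLE size factors, no filter, only the populations compared, library sizes without the ribosomal models, a replicate block, and libraries left out; leaving out both libraries that stand apart was added after seeing the data. In counts simulated for 200 changed genes among 14801, recovery meant an adjusted p under 0.05 with no fold limit. By that rule the fit recovered 45% of 2-fold and 70% of 3-fold changes for CD62L-high against CD62L-neg CMPs. For the difference of the CD62L effect it recovered 8% and 57%. Recovery with the fold limit added, as in the calls, was not measured. Same-numbered libraries did not deviate together (18 correlations from -0.0278 to 0.0546). Promoter windows are from RefSeq and were matched by symbol for all 6 genes. Coding sequences, shared stretches, exon lengths, overlaps and positions are from the GENCODE annotation. Intervals of pooled-count ratios and the limits cover counting error only, and intervals of log2 fold changes rest on the SE of the edgeR fit. Some genes of the lists are not reported here by name.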

Additional observations from a re-analysis of the deposited data

Results flagged for a closer look

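The effect of CD62L differed between GMPs and CMPs for 5 of the pathway genes described, by the interaction term of edgeR's quasi-likelihood test, in which 5.93% of all genes were called. Because the study set the CD62L gates of CMPs and GMPs by different rules, progenitor and gate cannot be told apart in this term. Each value is the log2 fold change of CD62L-high over CD62L-neg GMPs minus that in CMPs. For *Dhrs3* it was 1.91 (SE 0.39, adjusted p = 0.00233), with an increase in both progenitors. For *Vdr* it was 4.20 (SE 0.63, adjusted p = 9.05e-05), also with an increase in both. For *Nr4a1* it was 2.30 (SE 0.45, adjusted p = 0.00158), with 175 and 154 CPM in CD62L-neg and CD62L-high CMPs and 7.14 and 30.8 CPM in the GMPs. For *Cebpe* it was -5.48 (SE 0.76, adjusted p = 3.29e-05), with 0.907 and 2.39 CPM in the CMPs and 54.6 and 3.19 CPM in the GMPs. For *Ncoa3* it was 1.05 (SE 0.21, adjusted p = 0.00203), a call that was lost when any 1 of 4 libraries was left out.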

How the results depend on the processing

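The call of *Dhrs3* in CD62L-high against CD62L-neg CMPs rested on the 2-fold limit and was lost under 7 of 14 alternatives, with log2 changes from 0.80 to 1.37 when libraries were left out. Its calls in GMPs and between the CD62L-neg populations kept their direction and their side of the threshold under all alternatives run. For CD62L-int against CD62L-high GMPs the 180 genes called became 302 with DESeq2, 324 with no filter, 71 with only the populations compared and 87 to 164 without single libraries, and the 2 other pathway genes called became 0 with only the populations compared and 1 to 2 without single libraries. Other pathway genes called numbered 2 to 5 without single libraries for CD62L-high against CD62L-neg CMPs (5 in the fit reported), and 6 with only the populations compared for bulk GMPs against bulk CMPs (10 in the fit reported).

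Changes near 0 turned sign. Without single libraries, *Rarg* ranged from -0.39 to 0.03 in the CMP comparison, from -0.12 to 0.37 between the bulk populations and from -0.18 to 0.12 between the CD62L-neg populations, *Rxrb* from 0.00 to 0.16 in the CMP comparison and from -0.04 to 0.15 between the CD62L-high populations, and *Rxra* from -0.16 to 0.10 in CD62L-int against CD62L-high GMPs. *Rxrb* turned to 0.00, just below 0, without CD62L-neg CMP replicate 3 in the CMP comparison, and between the CD62L-high populations to -0.04 without CD62L-high CMP replicate 1, -0.02 without CD62L-high GMP replicate 1 and -0.01 without both libraries that stand apart. *Rarg* turned to 0.03 without CD62L-high CMP replicate 3 in the CMP comparison, to -0.12 without bulk GMP replicate 1 between the bulk populations, and between the CD62L-neg populations to 0.00 with no filter or without CD62L-neg CMP replicate 3, 0.09 without CD62L-neg CMP replicate 1 and 0.12 without CD62L-neg GMP replicate 1. *Rxra* turned to 0.07 without CD62L-int GMP replicate 3 and 0.10 without CD62L-high GMP replicate 2 in CD62L-int against CD62L-high GMPs. *Rarg* in CD62L-high GMPs against CD62L-high CMPs passed both limits without CD62L-high CMP replicate 2 (1.17) or CD62L-high GMP replicate 3 (1.10). The cause of these shifts was not tested.

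With the replicate number as a block, 1528, 1489, 160, 1612, 1805 and 1084 genes were called in the 6 comparisons, against 1549, 1553, 180, 1700, 1865 and 1131 without it, and *Rarg* between the CD62L-neg populations turned to 0.01. The libraries share a number only, and *Dhrs3* kept its calls under the block (1.03 in CMPs, adjusted p = 0.0139 by edgeR).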
